A study of Homo sapiens with 6 samples.

Results

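The genes described here are those of the mitochondrial ribosome whose symbol starts with MRPL or MRPS and a number, in RNA-seq libraries of Huh7, a cell line from a human liver cancer. The symbol rule found 55 rows of 10191 in the table, each a single RefSeq transcript, with 36 MRPL rows for the large subunit and 19 MRPS rows for the small subunit. Of the MRPL rows 2 are not coding: MRPL23-AS1 is an antisense RNA of MRPL23, and MRPL45P2 is a pseudogene transcript. The row of MRPS2 is a non-coding transcript of a coding gene. The ribosomal genes MRPS18A and DAP3, and TFAM of mitochondrial DNA packaging, were not analysed here.

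Per the labels, 3 libraries came from cells carrying a short hairpin RNA against ABL1, which encodes a cytoplasmic and nuclear tyrosine kinase, and 3 from cells carrying a scrambled hairpin. All cells had been through puromycin selection and were taken a week later. Hairpin sequences and their number were not given in the sources used here, so hairpin and clone or pool effects cannot be told apart from the knockdown. Nothing says that the replicates of a group were separate cultures, so a p-value here measures the spread among these libraries alone, and that spread may be technical.

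Mitochondrial ribosomes translate the few messenger RNAs made from mitochondrial DNA, all of them for subunits of the respiratory chain and ATP synthase. Their ribosomal RNAs come from mitochondrial DNA, while every ribosomal protein is encoded in the nucleus, made in the cytosol and imported. Part of the proteins have relatives in bacterial ribosomes, usually those with low numbers, and the others are found only in mitochondrial ribosomes. The large subunit holds the peptidyl transferase centre and the exit tunnel, and the small subunit holds the decoding site.

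The table gave from 6651413 to 7952645 reads per knockdown library and from 7713451 to 10487862 per scrambled library. The unit used below is the normalized count, the read count brought to a common scale with the authors' own factor for each library. ABL1 transcript NM_007313 averaged 11.1 ± 2.33 normalized counts in knockdown and 72.1 ± 1.09 in scrambled libraries (SD, n = 3 each), and NM_005157 averaged 20.5 ± 3.75 in knockdown and 8.74 ± 1.84 in scrambled libraries. Libraries of the same group correlated at 0.984 to 0.988, and libraries of different groups at 0.940 to 0.951. A transcript is called when its adjusted p is under 0.05 in limma's test over all 8600 transcripts with a mean of at least 10 normalized counts. Of these, 51.9% were called, 27.4% lower and 24.5% higher in the knockdown. In 58.9% of the 8600 the knockdown libraries lay entirely below or entirely above the scrambled ones.

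More of the mitochondrial ribosomal rows fell than rose in the ABL1 knockdown, 24 against 3 of 52 tested. Of 34 tested MRPL rows 18 fell (52.9%) and 3 rose (8.82%). Of 18 tested MRPS rows 6 fell (33.3%) and 0 rose. The shares over all tested transcripts were 27.4% lower and 24.5% higher. The falls were small for most members, with a median log2 change of -0.30 for MRPL and -0.12 for MRPS rows, against 0.0018 for all transcripts tested. Among tested members, MRPL16, MRPL18 and MRPL19 fell by 2-fold or more, which is 5.77% of members against 9.02% of all tested transcripts. In bulk RNA, fewer cells of a type and less RNA per cell cannot be told apart. The 3 rows not tested had few reads: MRPL11 had 1 to 12 per library, MRPL55 3 to 15 and MRPS2 0 to 6.

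**Figure D1:**
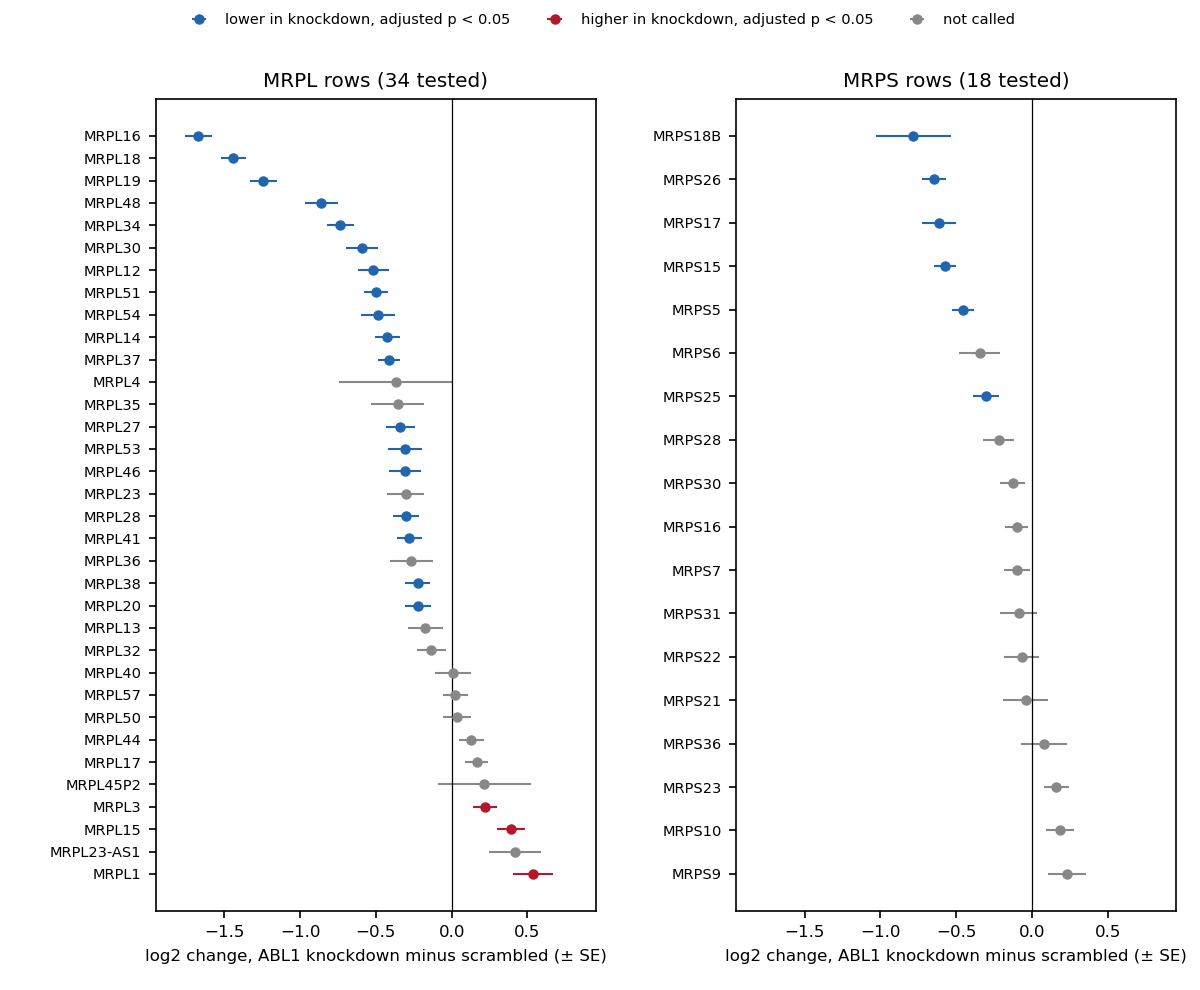
The log2 change between ABL1 knockdown and scrambled libraries (mean difference of log2(normalized count + 1), x axis) is drawn for each tested MRPL row on the left and each MRPS row on the right, with bars for the standard error and colour for the limma call. MRPL16, MRPL18 and MRPL19 stand apart at the low end, at -1.67, -1.44 and -1.24, while the other members lie between -0.86 and 0.54.

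In the large subunit the strongest fall was that of MRPL16 (NM_017840, chromosome 11, 59806140 to 59810778 in GRCh38), a relative of a bacterial protein that lies close to the peptidyl transferase centre. MRPL16 had 359.97, 354 and 326 normalized counts in the knockdown libraries, against 1067, 1170.1 and 1078 in the scrambled libraries. The groups lay far apart, with every knockdown library under every scrambled one. The log2 change was -1.67 (SE 0.088, limma adjusted p = 2.72e-08), or 3.19 times lower.

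MRPL18 (NM_014161, chromosome 6, 159789812 to 159798429) belongs to the central protuberance of the large subunit. MRPL18 had 436, 449.9 and 435 normalized counts in the knockdown and 1172, 1187 and 1230.0 in the scrambled libraries. The replicates were close together and the groups did not overlap. The log2 change was -1.44 (SE 0.080, adjusted p = 3.80e-08). The gene has 9 curated RefSeq transcripts, of which the table lists 1.

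MRPL19 (NM_014763, chromosome 2, 75646783 to 75662206), a relative of a bacterial protein at the interface of the subunits, had 329.6, 349 and 318 normalized counts in the knockdown and 790.4, 763 and 806 in the scrambled libraries. Again each knockdown library lay below each scrambled one. The log2 change was -1.24 (SE 0.089, adjusted p = 2.58e-07). MRPL16 and MRPL19 each have 1 curated RefSeq transcript in GRCh38.p14.

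The promoters of MRPL16, MRPL18 and MRPL19, the 3 strongest falls, are shown with those of MRPS26, the most abundant member of the small subunit, and MRPL1, the strongest rise, so that the strongest changes in both directions and an abundant gene can be read. Each runs from 250 bases before to 50 after the start of the gene, 5′ to 3′ on the gene's strand, from RefSeq in build GRCh38.p14. Capitals mark matches to 4 motifs searched on both strands: CCGGAAG of ETS factors, AAGATGGC of YY1, GCATGCGC of NRF1, and the E-box CACGTG bound by MYC.
MRPL16, chr11:59810729-59811028, minus strand: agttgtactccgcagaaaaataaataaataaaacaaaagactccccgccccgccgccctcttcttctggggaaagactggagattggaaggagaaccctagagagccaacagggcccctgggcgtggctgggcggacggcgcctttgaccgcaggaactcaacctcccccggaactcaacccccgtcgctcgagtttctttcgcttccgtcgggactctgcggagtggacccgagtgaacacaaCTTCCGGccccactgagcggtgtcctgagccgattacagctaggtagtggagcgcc
MRPL18, chr6:159789562-159789861, plus strand: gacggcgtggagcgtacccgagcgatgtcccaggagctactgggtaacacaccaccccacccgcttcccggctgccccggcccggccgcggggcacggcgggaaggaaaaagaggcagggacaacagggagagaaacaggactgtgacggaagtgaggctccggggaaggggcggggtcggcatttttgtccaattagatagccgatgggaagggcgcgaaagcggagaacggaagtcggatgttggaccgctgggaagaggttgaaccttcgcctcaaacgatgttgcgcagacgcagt
MRPL19, chr2:75646533-75646832, plus strand: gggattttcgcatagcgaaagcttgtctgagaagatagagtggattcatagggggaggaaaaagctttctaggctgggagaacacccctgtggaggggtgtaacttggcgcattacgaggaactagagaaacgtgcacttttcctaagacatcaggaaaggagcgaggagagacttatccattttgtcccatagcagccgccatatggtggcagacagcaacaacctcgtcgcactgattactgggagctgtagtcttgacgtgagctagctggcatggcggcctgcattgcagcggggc
MRPS26, chr20:3045802-3046101, plus strand: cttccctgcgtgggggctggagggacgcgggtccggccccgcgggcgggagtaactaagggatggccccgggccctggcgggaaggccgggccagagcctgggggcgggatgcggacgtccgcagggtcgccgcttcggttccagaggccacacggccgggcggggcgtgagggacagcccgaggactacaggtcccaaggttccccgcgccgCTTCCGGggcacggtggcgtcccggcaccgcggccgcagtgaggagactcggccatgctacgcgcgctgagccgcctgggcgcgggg
MRPL1, chr4:77862580-77862879, plus strand: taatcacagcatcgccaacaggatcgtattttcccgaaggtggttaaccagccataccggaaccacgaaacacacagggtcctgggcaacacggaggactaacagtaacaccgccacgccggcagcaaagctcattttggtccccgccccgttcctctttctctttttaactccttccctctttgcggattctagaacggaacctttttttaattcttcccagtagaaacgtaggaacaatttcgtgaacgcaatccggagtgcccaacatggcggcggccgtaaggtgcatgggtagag

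Of these 5, MRPL16 and MRPS26 held 1 match each, both to the ETS motif, and the windows of MRPL18, MRPL19 and MRPL1 held none. Promoters were found for 49 of the 55 members, taking the first start listed for each gene. The ETS motif was in 38.8% of them, against 18.5% of the promoters of tested genes and 10.7% of all 27305 promoters. The YY1 motif was in 22.4% of member promoters, against 4.84% of those of tested genes and 3.03% of all. The shares for NRF1 were 6.12%, 5.10% and 3.27% in the same order, and those for the E-box 6.12%, 10.5% and 7.43%. Among promoters of members, the ETS motif was in 11 of 24 called lower and in 7 of 20 tested and not called, and the YY1 motif in 5 of 24 and 6 of 20. A match of letters is a description of the window and shows no binding.

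After these came MRPL48, found only in mitochondrial ribosomes, and MRPL34, a relative of a bacterial protein. MRPL48 averaged 283 ± 26.3 normalized counts in the knockdown and 514 ± 41.3 in the scrambled libraries (SD, n = 3 each), a log2 change of -0.86 (SE 0.11, adjusted p = 3.09e-05). MRPL34 averaged 447 ± 14.8 in the knockdown and 745 ± 52.3 in the scrambled libraries, a log2 change of -0.73 (SE 0.090, adjusted p = 2.45e-05). Both had knockdown libraries entirely below the scrambled ones. MRPL30 averaged 327 ± 23.7 in the knockdown and 494 ± 42.9 in the scrambled libraries (log2 change -0.59, adjusted p = 0.000480).

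MRPL12 forms the flexible stalk that recruits translation factors to the large subunit. MRPL12 had 1098, 901 and 1204 normalized counts in the knockdown, against 1557, 1434 and 1568 in the scrambled libraries. The knockdown libraries varied more among themselves, yet all lay below the scrambled ones. The log2 change was -0.52 (SE 0.10, adjusted p = 0.00100).

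MRPL41, a mitochondria-specific protein near the exit tunnel, had the highest mean count of the MRPL rows, with 1848 ± 70.9 in the knockdown and 2247 ± 219 in the scrambled libraries. Its fall was small, a log2 change of -0.28 (adjusted p = 0.0139). The call was lost without scrambled replicate 1 (adjusted p = 0.0617) or 3 (0.0524) or knockdown replicate 1 (0.0551), within a range of 0.00340 to 0.300 over the alternatives run. It was also lost with equal library totals, quantile normalization and limma without trend. MRPL20 was the fall closest to the threshold, with a log2 change of -0.22 (adjusted p = 0.0411). Its call was lost when any 1 of the 6 libraries was left out (adjusted p = 0.0550 to 0.114, within 0.0331 to 0.639 over the alternatives). The MRPL20 call was also lost with equal library totals, quantile normalization, median-of-ratios size factors and limma without trend. MRPL23, just outside the threshold, averaged 364 ± 57.3 in the knockdown and 447 ± 40.4 in the scrambled libraries (log2 change -0.30, adjusted p = 0.0554). It was called lower in 3 alternatives: a replicate block (limma adjusted p = 0.0160), and without knockdown replicate 1 (0.0132) or scrambled replicate 3 (0.0452).

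Against the trend of the subunit, 3 large subunit genes rose. MRPL1, the protein of the stalk through which deacylated transfer RNA leaves the ribosome, had 296, 340.2 and 271 normalized counts in the knockdown, against 180.1, 216 and 229 in the scrambled libraries. Every knockdown library was above every scrambled one. The log2 change was 0.54 (SE 0.13, adjusted p = 0.00438). MRPL15 averaged 632 ± 37.8 in the knockdown and 481 ± 22.3 in the scrambled libraries (log2 change 0.39, SE 0.091, adjusted p = 0.00301). MRPL3, whose bacterial relative helps fold the peptidyl transferase region, averaged 1780.4 ± 76.3 in the knockdown and 1531 ± 113 in the scrambled libraries (log2 change 0.22, adjusted p = 0.0344). Its call was lost without scrambled replicate 1 or 3 or knockdown replicate 2 or 3 (adjusted p = 0.0730 to 0.133, within 0.00155 to 0.133 over the alternatives). Limma without trend lost the MRPL3 call as well. Neither of the non-coding MRPL rows was called. The antisense MRPL23-AS1 averaged 143 ± 7.18 in the knockdown and 109 ± 23.1 in the scrambled libraries (adjusted p = 0.0599). Of its 1876 exon bases 85 lie opposite exons of MRPL23, where reads cannot be assigned without a stated strand setting. Those exons belong to other models of MRPL23, since the MRPL23 transcript analysed here shared 0 exon bases with another gene.

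**Figure D2:**
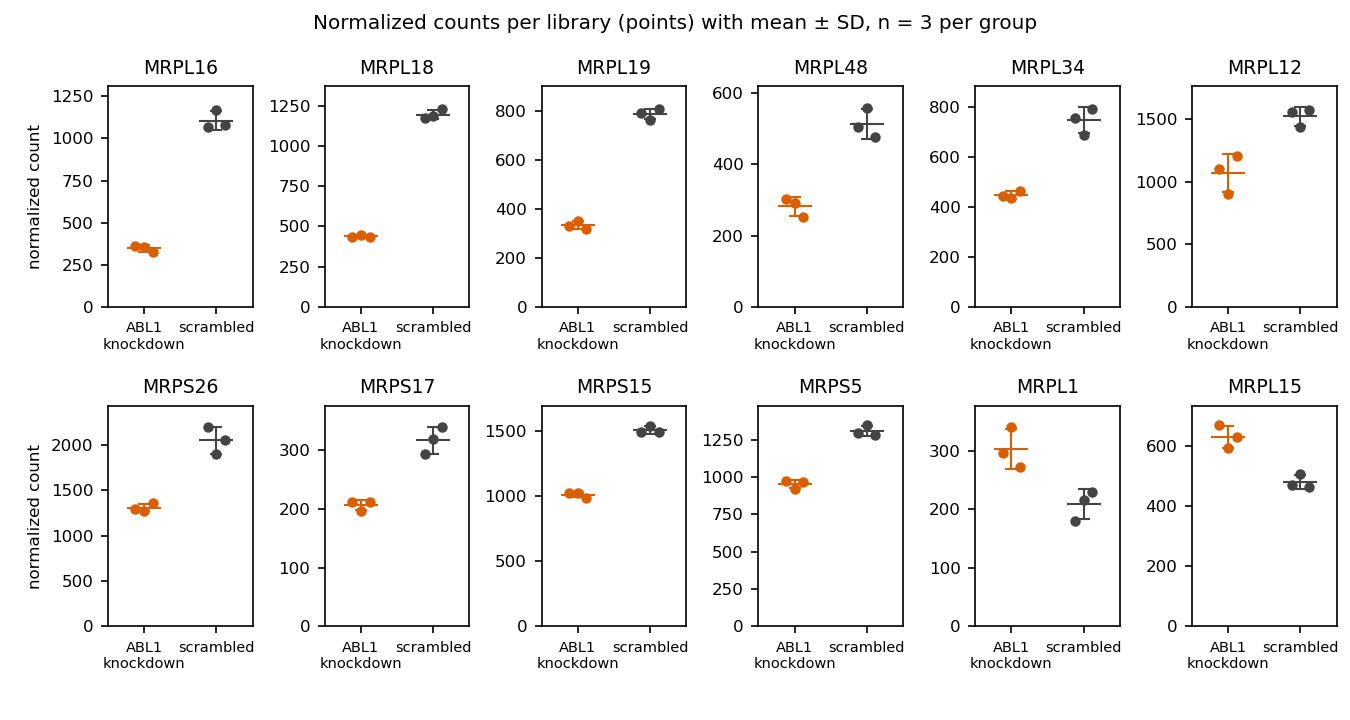
Normalized counts (y axis, from 0) of 12 members are shown for each library as points, with the mean and SD of the 3 libraries per group, ABL1 knockdown at the left of each panel. In 10 of them all knockdown points lie below all scrambled points, and in MRPL1 and MRPL15 all lie above. All 12 are called members, and of all 2355 transcripts called lower 2293 lay entirely below. Of all tested transcripts, called or not, 58.9% had no overlap between the groups.

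In the small subunit, 6 of 18 tested genes (33.3%) fell and none was called higher. Of all tested transcripts 27.4% fell and 24.5% rose. MRPS26, found only in mitochondrial ribosomes, had 1294, 1275 and 1357 normalized counts in the knockdown, against 2198, 1899 and 2055 in the scrambled libraries. The groups did not overlap, and the log2 change was -0.65 (SE 0.078, adjusted p = 2.12e-05). MRPS15, with a bacterial relative that binds ribosomal RNA early in assembly, had 1023, 1022 and 988 in the knockdown, against 1491, 1541 and 1492 in the scrambled libraries. The replicates of each group were within a narrow span, and the log2 change was -0.58 (SE 0.072, adjusted p = 2.85e-05).

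MRPS17 averaged 207 ± 8.79 in the knockdown and 318 ± 23.1 in the scrambled libraries (log2 change -0.61, SE 0.11, adjusted p = 0.000549). MRPS5, whose bacterial relative lines the path by which messenger RNA enters, averaged 954 ± 26.5 in the knockdown and 1308 ± 33.7 in the scrambled libraries (log2 change -0.46, adjusted p = 0.000255). MRPS25 averaged 880.4 ± 61.5 in the knockdown and 1087 ± 79.9 in the scrambled libraries (log2 change -0.30, adjusted p = 0.0114). Its call was lost without knockdown replicate 1 (adjusted p = 0.0575, within 0.00287 to 0.250 over the alternatives). Equal library totals, quantile normalization and limma without trend lost it too.

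MRPS18B had the largest log2 change of the small subunit, -0.78 (SE 0.25, adjusted p = 0.0181), on very few reads. It had 22, 24 and 27 reads in the knockdown, against 54, 45 and 41 in the scrambled libraries. It was also the call closest to the threshold, lost without scrambled replicate 2 (adjusted p = 0.0659) or knockdown replicate 1 (0.0586), within 0.00785 to 0.0659 over the alternatives. Equal library totals lost this call as well. MRPS6, just outside the threshold, averaged 289 ± 38.8 in the knockdown and 368 ± 55.5 in the scrambled libraries (log2 change -0.34, adjusted p = 0.0510). It was called lower in 6 alternatives, among them median-of-ratios size factors (limma adjusted p = 0.0486) and a replicate block (0.00894).

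MRPS30 carries a small subunit symbol but lies in the large subunit of the solved structure. It averaged 948 ± 11.4 normalized counts in the knockdown and 1038 ± 77.5 in the scrambled libraries, with knockdown libraries all below scrambled ones, and was not called (log2 change -0.13, adjusted p = 0.208). The highest log2 change of an MRPS row was 0.23, for MRPS9 (adjusted p = 0.149).

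Set side by side, 52.9% of tested MRPL rows and 33.3% of tested MRPS rows fell, against 27.4% of all tested transcripts. With coding rows only, 18 of 32 MRPL genes fell, or 56.2%. Placing members by structure, with MRPS30 in the large subunit and MRPS36, now counted with an enzyme complex, in neither, 18 of 33 large and 6 of 16 small subunit genes fell. No test of the difference in these shares was made. The log2 changes of the large subunit ran from -1.67 to 0.54, and those of the small subunit from -0.78 to 0.23. A range widens with the number of rows, here 34 against 18. The quartiles were closer, at -0.47 and 0.020 for MRPL and -0.43 and -0.048 for MRPS rows.

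In each library the mean log2 level of MRPL rows was set against that of MRPS rows. The difference was 0.055, -0.042 and -0.038 in the knockdown libraries, against 0.16, 0.030 and 0.061 in the scrambled libraries. The groups overlapped, since knockdown replicate 1 was above scrambled replicate 2. With coding rows only, the difference was 0.23, 0.13 and 0.15 in the knockdown libraries, against 0.36, 0.26 and 0.28 in the scrambled libraries, and the groups did not overlap. With members placed by structure it was 0.27, 0.18 and 0.18 in the knockdown libraries, against 0.38, 0.26 and 0.29 in the scrambled libraries, and they overlapped again. Over all MRPL and MRPS rows the mean difference was -0.0081 ± 0.055 in the knockdown and 0.083 ± 0.067 in the scrambled libraries (SD, n = 3 each), a shift of -0.091. With coding rows only it was 0.17 ± 0.055 in the knockdown and 0.30 ± 0.054 in the scrambled libraries, a shift of -0.13. In other sets of rows the shift differed. It was 0.049 among genes with 1 curated RefSeq transcript, which are 34 of the 52 tested members. It was -0.0086 with no filter on low values, where MRPL11, MRPL55 and MRPS2, all with few reads, were added. The shift was not tested.

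Summed over coding members, MRPL genes had 21912 ± 117 normalized counts in the knockdown and 27493 ± 510.1 in the scrambled libraries, a ratio of 0.797. MRPS genes had 11272 ± 224 in the knockdown and 13481 ± 335 in the scrambled libraries, a ratio of 0.836. Over all tested transcripts the same ratio was 0.886. Directions of small changes depended on the scaling. With libraries scaled to equal totals, which raised the median of all transcripts to 0.18, the MRPS median became 0.059 and the MRPL median -0.13. Under that scaling 11 MRPL and 4 MRPS rows fell, and 6 MRPL and 3 MRPS rows rose. These counts are to be read against all transcripts, of which 1695 fell and 2985 rose under that scaling. With the authors' scaling 2355 fell and 2105 rose.

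**Figure D3:**
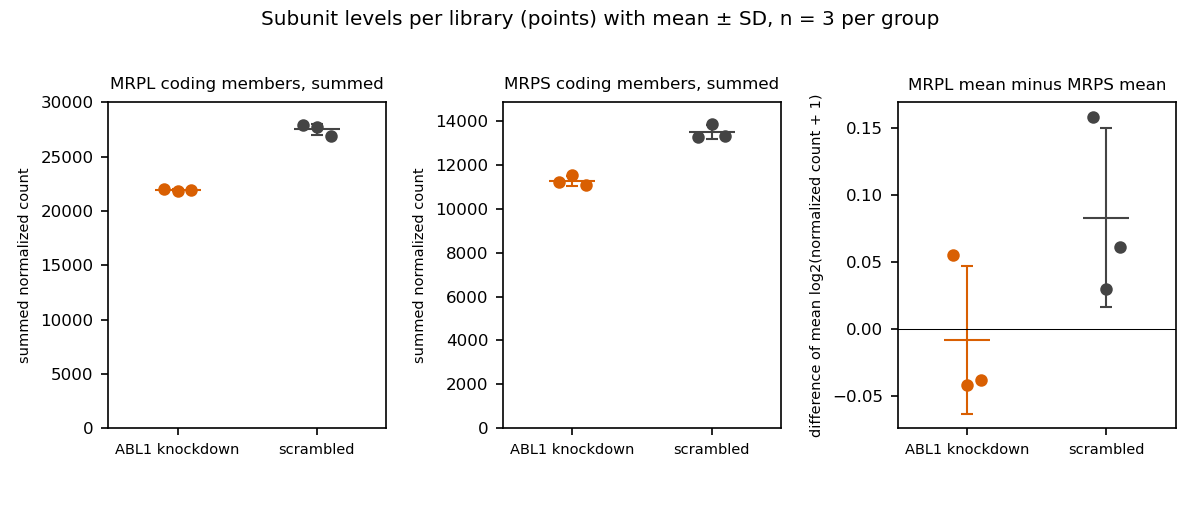
For each library (points, with mean and SD of 3 libraries per group, ABL1 knockdown left), the panels give the summed normalized count of coding MRPL members, the same for MRPS members, and the mean log2 level of MRPL minus that of MRPS rows. Both sums are lower in every knockdown library, with ratios of 0.797 and 0.836, while the difference between subunits, drawn over all MRPL and MRPS rows, overlaps between the groups, which it does not with coding rows only.

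Members with a bacterial relative and those found only in mitochondria both had more falls than rises. Of 31 tested members with a bacterial relative 14 fell (45.2%) and 3 rose, against 27.4% lower and 24.5% higher among all tested transcripts, with a median log2 change of -0.30. Of 18 mitochondria-specific members 10 fell (55.6%) and 0 rose, with a median of -0.25. The 3 falls of 2-fold or more and the 3 rises were all in large subunit genes with a bacterial relative, a class of 20 tested genes whose log2 changes ran from -1.67 to 0.54. The 13 mitochondria-specific large subunit genes ran from -0.86 to 0.13, with 8 lower.

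Levels also differed between members. Per kilobase of transcript, the scrambled libraries had from 16.7 normalized counts of MRPL4 to 1819 of MRPS26. The levels per kilobase of MRPL41, MRPL51 and MRPL28 were next, at 1464, 1144 and 1213 in the knockdown, against 1780.3, 1616 and 1502 in scrambled cells. MRPL16 stood at 293 per kilobase in the knockdown and 935 in the scrambled libraries, and MRPL18 at 450.4 in the knockdown and 1223 in the scrambled libraries. The row of MRPL4 is 1 of 4 curated RefSeq transcripts of its gene, whereas MRPS18B, at 16.6 per kilobase in the knockdown and 29.1 in the scrambled libraries, has 1. The share of transcripts called also moved with read depth. Of all transcripts with a mean of 1000 or more counts 40.5% fell, and of members in that range 10 of 14. From 300 to 1000 counts the shares were 34.7% of all transcripts and 12 of 27 members, and from 10 to 300 they were 19.9% and 2 of 11.

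Some members share exon bases with another gene model in GENCODE 29, which applies to 20 of the 52 tested. The share was over 50% for 5 of them, all with a model on the same strand: 71.1% for MRPL46, 68.2% for MRPL12, 67.9% for MRPL38, 52.3% for MRPL53 and 55.4% for MRPS28. Of these, MRPS28 was not called and the other members were called lower. It was 31.6% for MRPS17, 31.9% for MRPS6 and 21.7% for MRPL30, all on the same strand, and 19.3% for MRPL20 and 18.4% for MRPS25 on the opposite strand. MRPL51, which fell with a log2 change of -0.50 (adjusted p = 0.000218), shares 19.7% of its exon bases with NCAPD2, a condensin subunit on the opposite strand that averaged 3624 ± 114 normalized counts in the knockdown and 7287 ± 591 in the scrambled libraries. The authors' handling of such reads was not given in the sources used here. Pseudogenes of any kind named after them exist for 23 tested members, up to 8 for MRPS21, and values of these members are uncertain where reads were shared.

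Several members start close to a gene on the other strand, most of them head to head. For 21 members a gene on the other strand started within 1000 bases, and in 8 pairs both genes were tested. Of 6 such pairs with a member called lower, the partner fell in 1, rose in 1 and was not called in 4. MRPL34 fell while its neighbour ABHD8, a hydrolase gene, rose (log2 change 0.26, adjusted p = 0.0458). This pair is not head to head: its start distance was -560 bases. A negative distance means that the partner starts past the member's start and is read back across it. The same held for neighbours of MRPL3 and MRPS9, which were not tested. MRPL30 fell while its neighbour MITD1 had a log2 change of 0.047 (adjusted p = 0.783). MRPL51 and NCAPD2 were the pair in which both fell.

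Lists of other genes of mitochondrial gene expression are to be read against the 27.4% of all tested transcripts that fell and the 24.5% that rose. Of 3 tested ribosomal proteins with other symbols, PTCD3 (-0.36) and GADD45GIP1 (-0.25) fell and CHCHD1 had a log2 change of -0.19 (adjusted p = 0.100). Of 8 translation factors and associated proteins 3 fell (37.5%), the elongation factor TUFM (-0.49), the membrane insertase OXA1L (-0.32) and LETM1 (-0.34). In the same list 1 rose, TACO1 (0.61), a translational activator of a cytochrome oxidase subunit. TUFM averaged 3625 ± 178 normalized counts in the knockdown and 5107 ± 245 in the scrambled libraries. Among 13 assembly factors 2 fell (15.4%), NOA1 (-0.75), a GTPase of small subunit assembly, and MPV17L2 (-0.25), and 2 rose, MTG1 (0.48), a GTPase of large subunit assembly, and NGRN (0.66).

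Of 13 mitochondrial tRNA synthetases and amidotransferase subunits 5 fell (38.5%), among them MARS2 (-0.85), and 2 rose, QRSL1 (0.32) and RARS2 (0.22). Of 11 genes of mitochondrial RNA and DNA maintenance 6 fell (54.5%) and 0 rose. They included POLG2 (-0.62), the accessory subunit of the DNA polymerase, PNPT1 (-0.52) of RNA turnover, and POLRMT (-0.49), the RNA polymerase. POLRMT averaged 3762 ± 511 normalized counts in the knockdown and 5272 ± 667 in the scrambled libraries. In these 5 lists together 18 of 48 tested transcripts fell and 5 rose. With equal totals 9 fell and 10 rose, where of all transcripts 1695 fell and 2985 rose. Among 4 tested regulators of mitochondrial biogenesis, MYC fell (-1.96) and the coactivator PPARGC1A rose (1.01), while the log2 changes of YY1 (0.15, adjusted p = 0.167) and ESRRA (-0.58, adjusted p = 0.316) did not pass.

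Cytosolic ribosomal proteins, the nearest comparison, were lower to a greater extent. Of 68 tested rows 46 fell (67.6%) and 0 rose, against 27.4% lower and 24.5% higher among all tested transcripts. Depth differed as well: the median of the mean counts was 3585 for cytosolic rows and 559 for mitochondrial members. Of all transcripts with a mean of 1000 or more counts 40.5% fell. The median log2 change of the cytosolic rows was -0.57, against -0.30 for MRPL, -0.12 for MRPS and 0.0018 for all tested transcripts. The summed normalized counts gave a ratio of 0.622 for the cytosolic proteins. The subunits were alike there in share, with 26 of 37 large and 20 of 31 small subunit rows lower. These are descriptions, with no test between the lists.

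**Figure D4:**
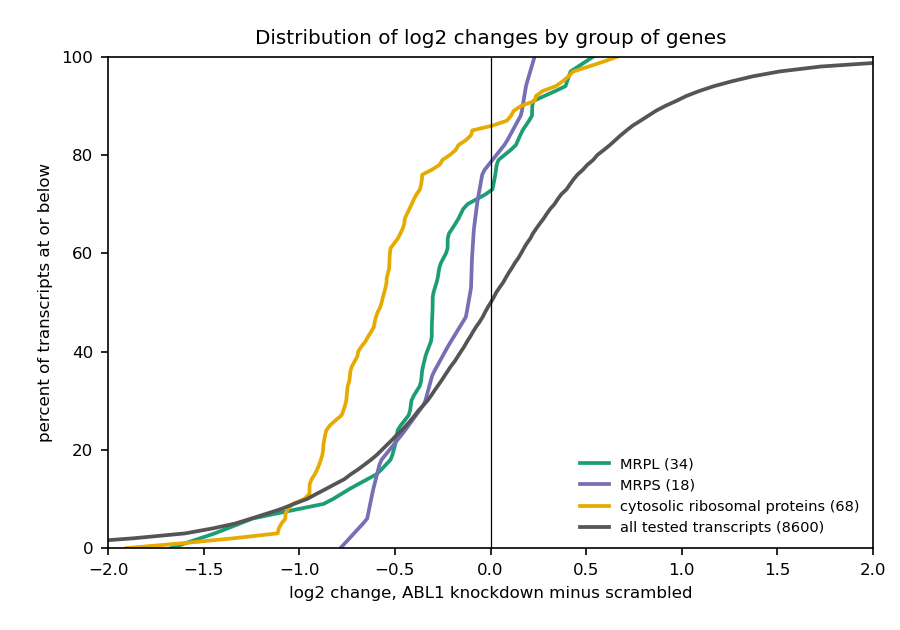
The percent of transcripts (y axis) at or below each log2 change (x axis) is drawn for MRPL rows, MRPS rows, cytosolic ribosomal proteins and all tested transcripts, whose extremes lie outside the axis. The medians lie at -0.30, -0.12, -0.57 and 0.0018 in that order, and the mitochondrial ribosomal lines are steeper than that of all transcripts.

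Counts of cell identity markers are also to be read against the 27.4% of all tested transcripts that fell and the 24.5% that rose. Of 6 tested hepatocyte lineage markers 4 fell and 0 rose, with a summed level of 396930 to 442350 normalized counts in the knockdown and 463850 to 523610 in the scrambled libraries, with ALB at 63227 ± 4438 in the knockdown and 84502 ± 5717 in the scrambled libraries. HNF4A, APOA1 and SERPINA1 were not analysed here. Of 5 fibroblast markers 4 rose and 1 fell (12965 to 14302 in the knockdown, 8638 to 9569 in the scrambled libraries), and of 3 biliary markers 2 fell (5669 to 6130.1 in the knockdown, 8241 to 9478 in the scrambled libraries). Of 4 endothelial markers 3 fell and 1 rose, at sums of 125 to 147 in the knockdown and 176 to 204 in the scrambled libraries. Of 3 immune markers 2 fell and LYZ rose, at 6544 to 7489 in the knockdown and 5714 to 6331 in the scrambled libraries. LYZ alone averaged 6961 in the knockdown and 5997 in the scrambled libraries. COL1A2 of the fibroblast list averaged 11998 in the knockdown and 7820.5 in the scrambled libraries. Each of these sums is thus mostly that of a single gene. CDH5, VWF and STAB2 of the endothelial list had few counts, with group means from 11.5 to 28.0. The part of the markers in the changes of the ribosomal genes was not tested.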

How the data were processed

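RNA-seq of total RNA from 6 Huh7 libraries was analysed, 3 with an ABL1 hairpin and 3 with a scrambled hairpin, grouped and numbered by their titles. The deposited signal is 1 value per RefSeq transcript and library, and, per the submitters' processing notes, HISAT2 2.0.4, HTSeq 0.6.1 and hg38 were used, with no role stated. Annotation, strand setting and row filter were not given in the sources used here. Judged by the numbers themselves, the authors' signal values are a scaled square root: squared, divided by 1 step per library and less 0.375, they gave whole reads within 0.05 for 100% of rows. Reads times the relative step are the normalized counts. Replicates were not duplicates (chi-square per degree of freedom from 5.50 to 9.70 within groups).

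Transcripts with a mean of at least 10 normalized counts were fitted with limma 3.58.1 in R 4.3.3 (lmFit, eBayes with trend) on log2(normalized count + 1), two-sided, Benjamini-Hochberg adjusted over all 8600 transcripts, threshold 0.05. The log2 change is knockdown minus scrambled and understates changes of transcripts with few reads. The fit was tested on simulated data. Of rows, 97.8% matched the RefSeq table of GRCh38.p14 for names, coordinates and promoters. Lengths and exons came from GENCODE 29. Members and lists were chosen with earlier results of these data known. Named members are the 6 largest falls and 4 largest rises called per subunit, the highest mean, those next to the threshold, MRPL12 and MRPS30, and in each other list up to 3 with the smallest p. MRPS9, MRPL51, MRPL4, MRPL28, MRPS21, MRPL46, MRPL38, MRPL53, MRPS28 and further list members were named after their values were seen.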

Additional observations from a re-analysis of the deposited data

How the results depend on the processing

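The 18 falls and 3 rises of MRPL rows and the 6 falls of MRPS rows were refitted under 18 alternatives, and 13 of 21 MRPL calls and 4 of 6 MRPS calls were kept in every one that tested the row. With equal library totals the median of all transcripts was 0.18, and 1695 of all transcripts fell and 2985 rose. MRPL fell in 11 and rose in 6 rows there (median -0.13), and MRPS rose in 3 (median 0.059). MRPS30 had a log2 change of 0.045, and the other genes of mitochondrial translation fell in 9 and rose in 10. With quantile normalization 2135 of all transcripts fell and 2290 rose. MRPL fell in 11 and rose in 5 rows (median -0.20), MRPS rose in 2 (median -0.055), and the other genes rose in 8. At a threshold of 0.01, 11 MRPL rows fell, and the rise of ABL1 NM_005157 (1.15) lost its call, as it did without knockdown replicate 3 (adjusted p = 0.0747) or scrambled replicate 2 (0.0501). With no filter on low values, which added MRPL11, MRPL55 and MRPS2 with their few reads, the difference between subunits was -0.0086. Added after seeing the data, a fit kept only genes with 1 curated RefSeq transcript, so its counts are of fewer rows. It called 1493 transcripts lower and 1211 higher. It held 34 of the 52 tested members, of which 15 fell and 3 rose in the main fit. In it 11 MRPL and 5 MRPS rows fell and 3 MRPL rows rose. The medians were -0.24 for MRPL and -0.17 for MRPS, with 3 rises among the other genes and a difference between subunits of 0.049. The median of all transcripts was -0.024 in that fit and -0.036 with a minimum of 50 counts. Leaving out 1 library at a time, 14 to 15 MRPL and 4 to 8 MRPS rows fell, the medians ran from -0.34 to -0.25 for MRPL and -0.20 to -0.11 for MRPS, and NM_005157 from 0.99 to 1.27. The causes of these differences were not tested.

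Deviations from the group mean correlated at 0.047, 0.077 and 0.077 between same-numbered libraries, and from -0.15 to 0.089 between the others. With 3 libraries per group these values cannot settle whether same-numbered libraries shared a batch. With a replicate block 20 MRPL and 8 MRPS rows fell and 4 MRPL rows rose, and of all transcripts 2520 fell and 2301 rose. The read depth limits MRPS18B, MRPL4 and the rows that were not tested.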
